A study of Mus musculus with 5 samples.

Results

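The cells described here are epithelial cells of the mouse ileum in which transcripts of at least 4 of 7 genes were detected: Ccl20, Duoxa2, Nos2, Cxcl2, Adm, Phlda1 and Pfkfb3. Of 18955 cells that passed the filters (at least 500 detected genes and at most 20% of UMIs, the counted transcript molecules, from mitochondrial genes), 1487 met this rule, or 7.84%. They are called Ccl20/Duoxa2/Nos2 cells, or members, below. The rule reads the counts of the cells themselves, so the members were chosen by the detected counts of the 7 genes, whose levels are given as a description, with no test.

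The cells came from the distal small intestine of C57BL/6 mice aged 8 to 12 weeks that had undergone either sham surgery or small bowel resection, an operation that removes part of the small intestine. Epithelial cells were encapsulated with the 10x Chromium 3' v2 chemistry, giving 3 sham libraries (sham 1, 2 and 3) and 2 resection libraries (resection 1 and 2). Neither the time between surgery and tissue collection nor the number of mice behind a library is given in the sources used here, so p-values measure the spread between these libraries, which may in part be technical. Total depth ran from 11749028 to 41281731 UMIs per library.

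Intestinal epithelial cells sense microbes through pattern-recognition and cytokine receptors, many of which signal through NF-kB, a family of transcription factors held inactive in the cytoplasm by IkB proteins. Ccl20 is the chemokine ligand of the receptor Ccr6 and draws lymphocytes and dendritic cells towards the epithelium, and Cxcl2 is a neutrophil chemokine. Duoxa2 is the maturation factor that brings the dual oxidase Duox2 to the cell surface, where it releases hydrogen peroxide, and Nos2 is the inducible nitric oxide synthase. Adm encodes the vasoactive peptide adrenomedullin, Pfkfb3 makes the metabolite that activates glycolytic phosphofructokinase, and Phlda1 is a pleckstrin-homology-like protein that responds to growth factor and stress signals.

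The genes lie on different chromosomes except for Duoxa2 and Pfkfb3. On GRCm38, Ccl20 is at chr1:83116766-83119167 and Cxcl2 at chr5:90903871-90905938, both on the plus strand. Nos2 is at chr11:78920787-78960254 on the plus strand. Duoxa2 (chr2:122298900-122302885, plus strand) and its partner Duox2 (chr2:122279247-122298449, minus strand) are neighbours that are read in opposite directions from starts 450 bases apart. Duoxa2 also overlaps Duoxa1 on the other strand, and whether the authors' counting used the strand is not given in the sources used here, so reads of the 2 genes may not be told apart. Adm, Phlda1 and Pfkfb3 also overlap annotated antisense or noncoding genes. RefSeq promoter entries (GRCm38.p6) were found for 5 of the 7 genes, leaving out Nos2 and Phlda1. Bases -130 to -31 before the RefSeq starts of both chemokine genes and Duoxa2 are shown because the chemokines carry an NF-kB-type motif there and Duoxa2 does not. Capitals mark GGG followed by any 2 bases and TTTCC, read on either strand, all other bases are in lower case, and the sequences read 5′ to 3′ on the strand of the gene, which is the plus strand for these 3 genes (chr1:83116636-83116735, chr5:90903769-90903868 and chr2:122298770-122298869).
Ccl20: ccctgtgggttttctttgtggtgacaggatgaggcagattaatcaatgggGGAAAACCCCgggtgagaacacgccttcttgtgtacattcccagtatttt
Cxcl2: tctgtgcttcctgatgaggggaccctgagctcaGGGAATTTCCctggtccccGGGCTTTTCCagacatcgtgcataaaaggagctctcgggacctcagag
Duoxa2: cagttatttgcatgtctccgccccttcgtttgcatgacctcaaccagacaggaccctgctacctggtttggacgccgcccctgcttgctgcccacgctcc
Ccl20 has 1 match, beginning at position -80, and Cxcl2 has 2, beginning at -97 and -78. The motif was searched in the 250 bases before the start, and 464 of 32851 such windows (1.41%) held it on either strand. No match was found in the windows of Duoxa2, Adm, Pfkfb3 or Duox2, and a match is only an occurrence of these letters, chosen as a motif after the sequences had been seen.

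The members were spread very unevenly over the 5 libraries. Sham 3 held 1026 members among 2848 cells, which is 36.03% (exact Clopper-Pearson 95% interval 34.3 to 37.8%) and makes up 69.0% of all members. Sham 1 held 79 of 1296 (6.10%, 4.86 to 7.54%) and sham 2 held 17 of 3914 (0.434%, 0.253 to 0.695%). Resection 1 held 18 of 3792 (0.475%, 0.282 to 0.749%) and resection 2 held 347 of 7105 (4.88%, 4.39 to 5.41%), which is 23.3% of all members. Sham 2 and resection 1 thus had like shares, as had sham 1 and resection 2, and sham 3 stood far above the other 4 libraries. With at most 10% mitochondrial UMIs the share of sham 1 was 1.84%, that of sham 3 34.6% and that of resection 2 4.42%. These intervals cover counting error only.

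Members held more UMIs than other cells of their library, with medians of 6975, 9201, 6797.5, 10314.5 and 6675 in sham 1, sham 2, sham 3, resection 1 and resection 2 against 5427, 4598, 6018.5, 5521 and 4569. Deeper cells meet a detection rule more easily, so each cell was also thinned to 2000 UMIs, a depth that no filtered cell fell short of. The shares then were 1.31%, 0.0766%, 13.4%, 0.0264% and 0.704% in the same order, and sham 3 remained the highest library. Just outside the rule, 1302 cells had 3 of the genes, 453 of them in sham 3 and 551 in resection 2. Just inside it, 730 cells had 4, 405 of them in sham 3 and 241 in resection 2. Another 471 cells had 5 genes, 240 had 6 and 46 had all 7, 43 of these in sham 3.

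**Figure D1:**
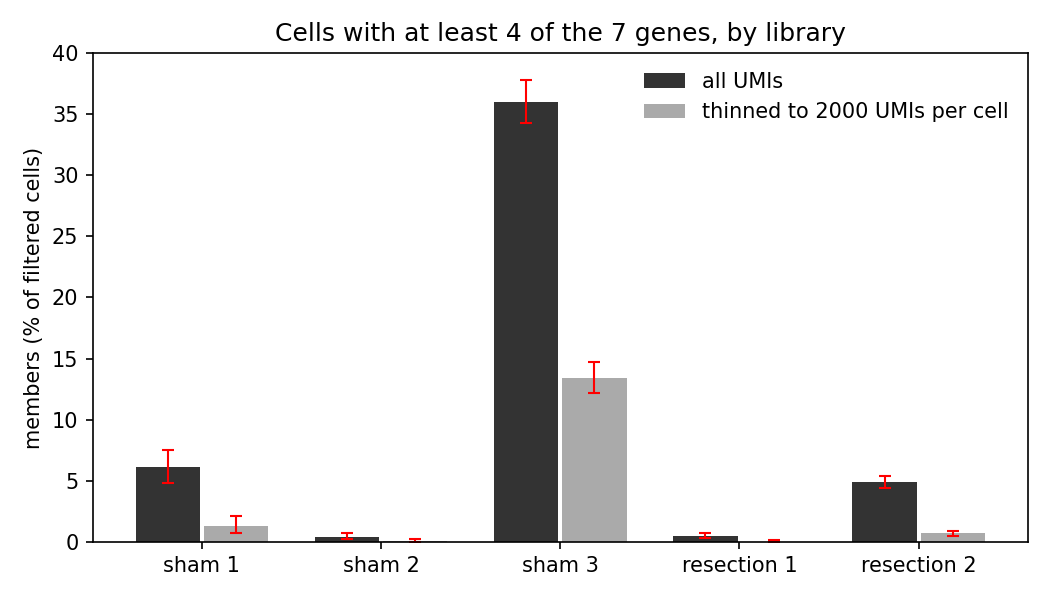
Share of filtered cells that had at least 4 of the 7 genes (y axis, percent) in each of the 5 libraries, from all UMIs (dark bars) and after thinning every cell to 2000 UMIs (light bars), with red exact 95% intervals for counting error. Sham 3 is the highest library both ways, at 36.03% and 13.4%, and the 2 resection libraries lie within the range of the 3 sham libraries, except that thinned resection 1 lies just below thinned sham 2.

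Surgery was compared over libraries. Members made up 14.2% ± 19.1 (SD, n = 3) of filtered cells in sham and 2.68% ± 3.12 (SD, n = 2) in resection libraries, a difference of -11.5 percentage points that did not exceed the spread between libraries (two-sided exact permutation test over the 10 arrangements, p = 0.7, smallest possible p 0.1). The size of that difference rested on sham 3, without which it was -0.586 points. Earlier work on these data set sham 1 beside resection 1, and sham 2 and sham 3 beside resection 2, by the makeup of their cells. Within the first set resection 1 lay 5.62 points below sham 1 (-5.62), and within the second resection 2 differed from the mean of sham 2 and sham 3 by -13.3 points. These sets are not labelled as batches.

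The label enterocyte was checked against markers. At least 5 of 10 enterocyte markers (among them Alpi, Sis, Anpep, Fabp2 and Slc5a1) were detected in 1481 of the 1487 members, but also in most other cells: 83.8 to 96.8% of filtered cells of a library had them. The marker share of UMIs says more. Its median was 1.16% in members against 0.728% in other cells of sham 1, 3.17% against 1.67% in sham 2, 1.70% against 0.400% in sham 3, 2.88% against 2.96% in resection 1 and 4.12% against 3.41% in resection 2. Members therefore carried a higher median enterocyte-marker share in 4 of 5 libraries, resection 1 being the exception.

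Transcripts of other epithelial lineages were widespread at low levels, and cells dominated by them were few among members. At least 3 of the 7 Paneth markers were detected in 97.5, 100, 67.1, 100 and 76.1% of members of sham 1, sham 2, sham 3, resection 1 and resection 2 (98.2, 97.6, 64.3, 88.9 and 77.0% of the comparison cells described below). At least 3 of the 7 goblet markers were detected in 68.4, 76.5, 44.8, 72.2 and 55.0% of members (76.2, 77.6, 41.1, 57.8 and 51.2% of comparison cells). These shares are of the same order on both sides. Paneth markers, the antimicrobial products of crypt-base Paneth cells, made up at least 5% of the UMIs of 21 members (1.41%), 4 of them in sham 1, 13 in sham 3 and 4 in resection 2. At least 3 of 8 cell cycle markers were found in 65 members, 49 of them in sham 3. At least 4 of 9 T cell markers were found in 5 of 79 members and 44 of 1217 other cells of sham 1, 0 of 17 and 126 of 3897 in sham 2, 19 of 1026 and 21 of 1822 in sham 3, 1 of 18 and 34 of 3774 in resection 1, and 15 of 347 and 235 of 6758 in resection 2. The share was thus higher among members in 4 of 5 libraries, on small counts, and its part in the results was not tested. No member had 4 macrophage or 3 neutrophil markers. Summed over members of a library, the 8 neutrophil markers reached at most 6.65 CPM, a gene's counts scaled to the total UMIs of those cells,, the 6 B cell markers at most 5.52 CPM and the 8 markers of stroma and endothelium at most 5.32 CPM. The defining genes Csf3r, Il1b and Retnlg of neutrophils, Adgre1, C1qa and C1qb of macrophages, Cd79a, Ms4a1 and Mzb1 of B cells were at 0 UMIs in the members. The 10 markers of M cells and follicle-associated epithelium, of which Gp2 and Scg5 were at 0, summed to 431, 445, 1018, 298 and 678 CPM in members of sham 1, sham 2, sham 3, resection 1 and resection 2 and to 375, 551, 683, 336 and 642 CPM in comparison cells. These sums were higher in members in sham 1, sham 3 and resection 2. At least 3 of these markers were found in 10.1% of sham 1 members (3.29% of comparison cells) and 3.996% of sham 3 members (1.98%). The order was the other way in sham 2 (0 against 1.18%), resection 1 (0 against 3.33%) and resection 2 (2.31 against 2.997%). The 10 macrophage and dendritic cell markers summed to between 71.8 and 131 CPM in members and between 86.8 and 120 CPM in comparison cells. Removing the highest doublet scores took out 720 cells, 96 of them members, and left sham 3 the highest library at 35.2%.

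Ccl20 varied most among the abundant genes of the rule. Its level in members was 257 CPM in sham 1, 202 in sham 2, 2125 in sham 3, 304 in resection 1 and 605 in resection 2, so sham 3 exceeded the next library 3.51-fold and the lowest 10.5-fold. In cells outside the rule it was 7.54, 8.82, 270, 6.94 and 53.7 CPM in the same order, again highest in sham 3 and next highest in resection 2. A member of sham 3 held a median of 10 and at most 212 Ccl20 UMIs, and the 103 members richest in it there held 42.9% of all Ccl20 UMIs in members. In sham 1, sham 2, resection 1 and resection 2 the medians were 1, 0, 1 and 2. Cycling cells of sham 3 (at least 4 of the 8 cell cycle markers, 306 cells, median 9277.5 UMIs) carried a Ccl20 UMI in 35.6% of cells, and 3 of 7 cells with at least 4 T cell markers and under 5 enterocyte markers (42.9%, median 7688 UMIs) did too, against 92.7% of members (median 6797.5 UMIs). Of cells outside the rule in sham 3 (median 6018.5 UMIs), 37.3% carried one, at 270 CPM against 211 CPM in cycling cells. In the other libraries cycling cells carried one in 1.75 to 11.1% of cells, and the part of free RNA in the members' levels was not tested.

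The members' oxidase and nitric oxide genes varied less. Duoxa2 was at 150, 131, 649, 221 and 228 CPM in members of sham 1, sham 2, sham 3, resection 1 and resection 2, and at 41.0, 32.9, 181, 29.2 and 61.1 CPM in other cells. Nos2 was at 157, 184, 348, 188 and 244 CPM in members and at 26.3, 33.9, 48.4, 30.3 and 56.9 CPM in other cells. For Nos2, sham 3 exceeded the next library 1.43-fold, against 2.85-fold for Duoxa2. Outside sham 3, members of the other 4 libraries thus lay between 131 and 228 CPM for Duoxa2 and between 157 and 244 CPM for Nos2.

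Cxcl2 was the rarest gene of the rule. It was detected in 3 members of sham 1, 1 of sham 2, 131 of sham 3 (12.8%), 3 of resection 1 and 28 of resection 2 (8.07%), and its level was 3.99, 5.94, 37.4, 22.1 and 17.1 CPM. In other cells it was between 0.371 and 1.76 CPM. Adm was at 160, 107 and 187 CPM in sham members and 71.8 and 64.9 CPM in resection members, so the groups did not overlap for this gene. Phlda1, the most abundant of the remaining genes, was at 399, 344 and 542 CPM in sham members and 171 and 285 CPM in resection members and did not overlap either. Pfkfb3 was at 70.5, 47.5 and 74.9 against 121 and 60.2 CPM and did overlap. As the rule chose members by these genes, their order between groups is a description. Lack of overlap was not rare, as 4.14% of 5891 other genes were lower in both resection libraries than in each sham library.

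**Figure D2:**
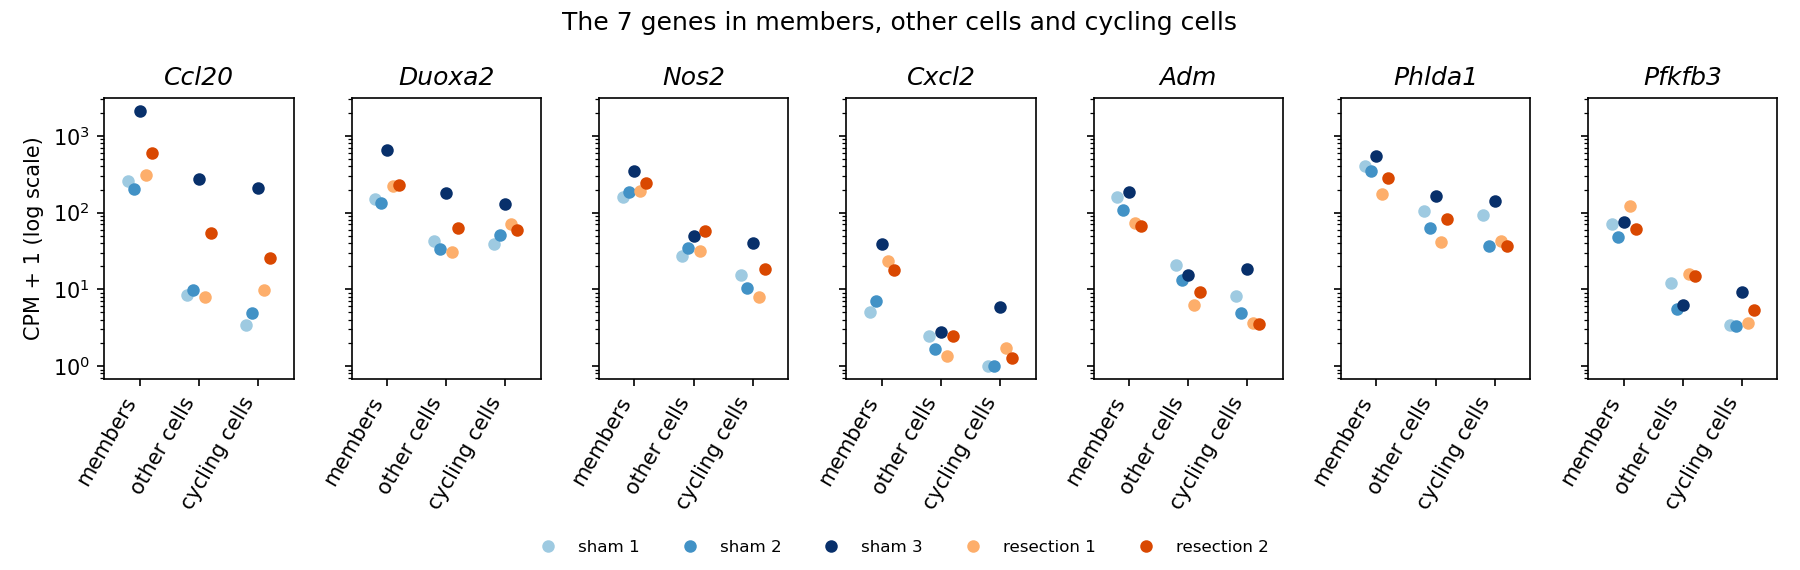
Level of each of the 7 genes (CPM + 1, log scale) in members, in cells outside the rule and in cycling cells, 1 point per library. Ccl20 in sham 3 stands above the other libraries in all 3 kinds of cell (2125, 270 and 211 CPM), and Nos2 is the gene whose members lie closest together among Ccl20, Duoxa2 and Nos2.

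The most frequent combination was Ccl20, Duoxa2, Nos2 and Phlda1 alone, in 282 members (18.96%), followed by the same genes with Adm in 260 (17.5%) and with Adm and Pfkfb3 in 196 (13.2%). Whether the genes occur in the same cells was described over all cells with at least 5 enterocyte markers, thinned to 2000 UMIs. In sham 3, 63.0% of cells with a Ccl20 UMI had a Duoxa2 UMI, against 33.1% of cells without Ccl20. The corresponding shares were 26.5% and 10.9% in sham 1, 20.8% and 5.99% in sham 2, 14.3% and 4.74% in resection 1 and 24.5% and 10.1% in resection 2. Nos2 was also found more often beside Ccl20, at 49.3% against 14.7% in sham 3, 31.3% against 11.5% in resection 2, 26.5% against 8.13% in sham 1, 23.8% against 7.11% in resection 1 and 20.8% against 7.71% in sham 2. The share beside Ccl20 was the higher one in each of these 10 comparisons, on 42 to 49 cells with Ccl20 in sham 1, sham 2 and resection 1. Cycling cells, unthinned, held a Duoxa2 UMI in 24.6, 31.0, 56.2, 44.2 and 36.6% of cells of sham 1, sham 2, sham 3, resection 1 and resection 2 and a Nos2 UMI in 8.77, 7.74, 17.3, 6.88 and 13.1%, so detection of Duoxa2 was not particular to these cells. Nos2 and Duoxa2 did not go together everywhere: Nos2 was in 7.05% of cells with Duoxa2 and 7.93% without it in sham 2, and in 4.49% and 7.45% in resection 1, but in 40.4% and 21.1% in sham 3. After thinning, each of these genes was detected in a minority of cells, at most 40.8% of the filtered cells of a library (Duoxa2 in sham 3). No test was made on the shares.

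Members were then compared with other cells of the same library. For each member, up to 5 other cells with at least 5 enterocyte markers and the nearest UMI totals were drawn. In sham 3 all 1366 such cells were taken for 1026 members, so depth was not matched there. Median UMIs in sham 3 were 6024.5 in comparison cells and 6797.5 in members. Counts were summed per library, and edgeR's quasi-likelihood test was fitted with the library as a block, leaving out the 7 genes of the rule. Because the rule drew this contrast in these same cells, the values describe what members hold beyond the 7 genes and are no independent test of it. Of 7933 genes, 1520 (19.2%) were higher and 1715 (21.6%) lower in members at an adjusted p below 0.05. The comparison cells differed in kind as well: their Paneth markers summed to between 17004 and 134981 CPM against between 2894 and 71463 CPM in members. All 7 Paneth markers and all 8 cell cycle markers were lower in members, and the most strongly lower genes by the naming rule were Paneth cell products, among them Defa22, Defa21, Gm15284, Gm14851, Defa20, Itln1 and AY761184, at log2 fold changes of -2.88 to -3.06. Defensin genes have near-identical copies between which reads may be split, so single genes among them are uncertain.

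A second comparison, chosen after these values were seen, therefore left out cells on both sides with at least 5% Paneth UMIs or at least 3 cell cycle markers and took for each remaining member 1 cell nearest in UMIs and in enterocyte-marker share together. It kept 72, 16, 966, 17 and 332 members in sham 1, sham 2, sham 3, resection 1 and resection 2. Of 4713 genes, 261 (5.54%) were higher and 295 (6.26%) lower, and 259 of the 261 were also higher in the first comparison. The Paneth genes named above then lay between -0.14 and 0.21, which follows from leaving out the cells rich in Paneth UMIs. The match was close in 4 libraries and incomplete in sham 3, where too few other cells were left: median marker shares were 1.76% in members and 1.03% in matched cells there, and median UMIs 6651 and 6098. A match on UMIs and marker share alone, with no cells left out, called 209 of 5422 genes higher (3.85%) and 236 lower (4.35%). Without sham 3, the second comparison, with Paneth and cycling cells left out, called 55 of 3733 genes (1.47%) higher and 15 (0.402%) lower. Without resection 2 it called 174 higher and 134 lower. The match on UMIs and marker share alone called 14 of 4303 genes higher and 3 lower without sham 3. Values below are log2 fold changes ± SE in the first comparison and in the second, called matched. Without sham 3 the matched comparison did not call Nfkb2, Il33, Saa1, Hif1a, Egln3, Errfi1, Dusp5, Dmbt1, Gsdmc4 or Creb3l3, among others named below.

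Genes of the NF-kB feedback loop were higher in members. Of 21 listed genes, 12 of 14 tested were higher and none lower, with a median of 0.89 beside -0.02 over all genes. In the matched comparison 12 of 13 were higher (median 0.78, all genes -0.01), and without sham 3, 7 of 10. Nfkbia, which encodes the IkBα protein that holds NF-kB in the cytoplasm, was at 590, 386, 741, 420 and 606 CPM in members of sham 1, sham 2, sham 3, resection 1 and resection 2 and at 308, 266, 394, 231 and 387 CPM in comparison cells. It was higher in 5 of 5 libraries (0.69 ± 0.11, edgeR adjusted p = 3.91e-05; matched 0.73 ± 0.12, adjusted p = 0.00055). Tnfaip3, which encodes the deubiquitinase A20 that ends NF-kB signalling, was at 145, 65.3, 100.9, 127 and 96.7 against 66.4, 26.2, 38.5, 37.6 and 51.5 CPM, members being higher in each library (1.17 ± 0.11; matched 0.89 ± 0.14). The RNase gene Zc3h12a (regnase-1), which degrades cytokine mRNAs, was at 1.01 ± 0.11 and matched 0.86 ± 0.14. The subunit genes Nfkb2 (1.42 ± 0.16; matched 1.11 ± 0.21) and Relb (0.95 ± 0.11; matched 0.73 ± 0.13) were higher too, each in 5 of 5 libraries at first and in 4 of 5 when matched. Without sham 3 the matched values were 0.63 for Nfkbia, 0.65 for Tnfaip3, 0.81 for Zc3h12a and 0.60 for Relb, all at an adjusted p below 0.05. Nfkb2 was not among the genes called there.

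Among other cytokines and chemokines, 7 of 8 tested were higher in the first comparison and 2 of 5 in the matched one. Cxcl16, a membrane-bound chemokine and scavenger receptor for lipids, was at 49.2, 35.6, 94.6, 22.1 and 77.0 CPM in members and 19.1, 11.9, 26.4, 25.4 and 32.8 CPM in comparison cells, higher in 4 of 5 libraries (a log2 fold change of 1.5 ± 0.15; matched 1.33 ± 0.15 and higher in 5 of 5). Il33, an alarmin of the interleukin-1 family, reached 54.1 CPM in sham 3 and 5.94 to 32.1 CPM in the other libraries (1.75 ± 0.15; matched 1.18 ± 0.22). Tnf, the gene of tumour necrosis factor, was at 19.95, 11.9, 27.4, 16.6 and 15.7 CPM in members and at 5.11, 0, 6.88, 2.21 and 3.61 CPM in comparison cells (2.11 ± 0.18), and Cxcl10, an interferon-induced chemokine, had a log2 fold change of 1.70 ± 0.19. Both had too few counts for the matched fit, and Cxcl10 was at 1.33 ± 0.17 (adjusted p = 0.00121) under the match on UMIs and marker share alone. The neutrophil chemokine Cxcl1 had only 131 UMIs over all members, at 2.66, 0, 11.8, 27.6 and 4.02 CPM, and was not tested.

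**Figure D3:**
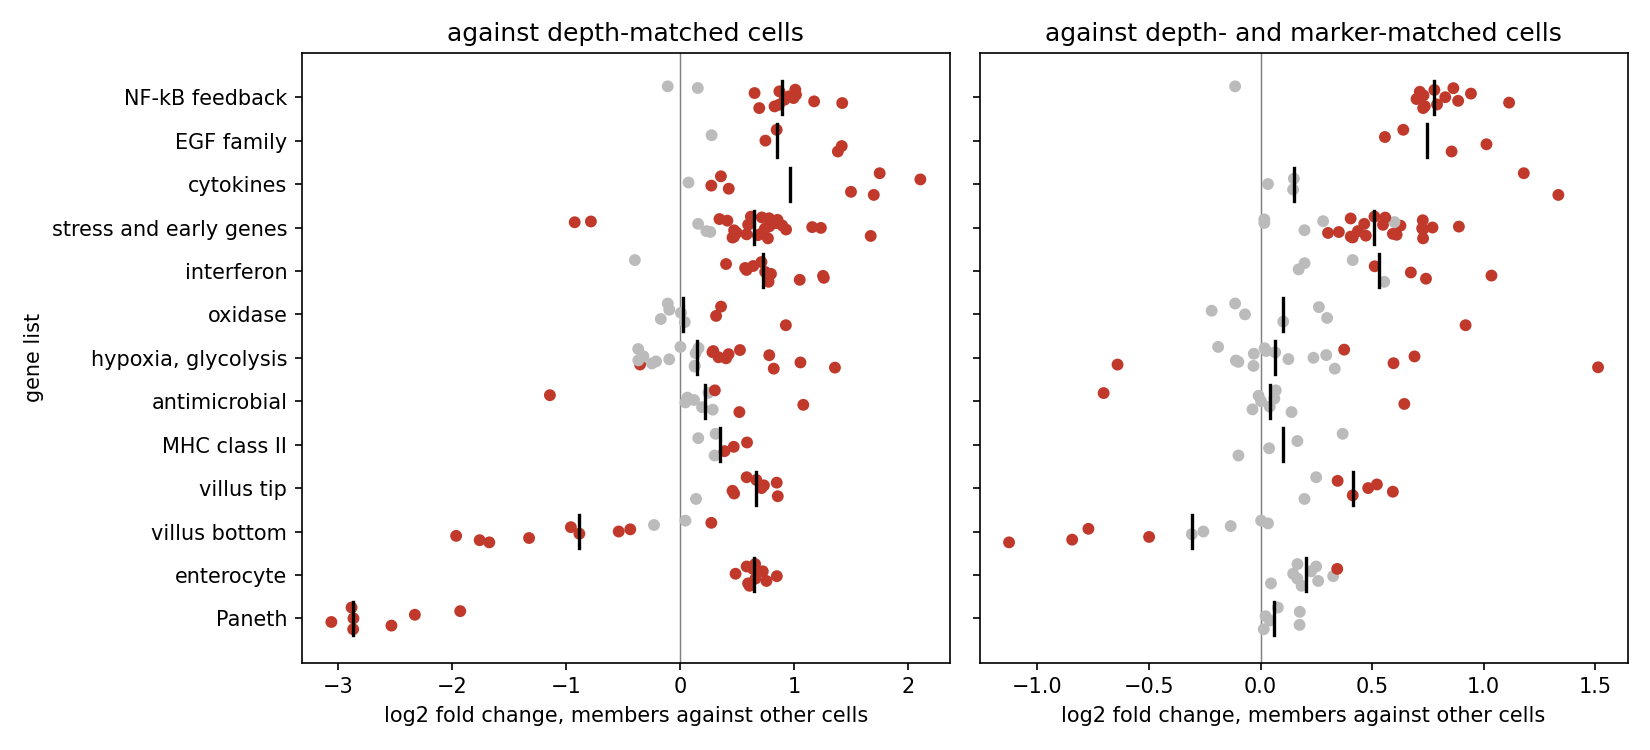
Log2 fold change of each tested gene of 13 lists between members and other cells. On the left are depth-matched cells, except in sham 3, where depth was not matched. On the right are cells also matched on enterocyte markers, with Paneth and cycling cells left out. Red points have an edgeR adjusted p below 0.05, and black bars are list medians. The NF-kB bar stays near its place (0.89 and 0.78). The Paneth bar moves from -2.86 to 0.06, which follows from leaving out the cells rich in Paneth UMIs.

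Growth factors of the EGF family, listed together with the receptor gene Egfr and with Errfi1, were the next group. Of 9 listed genes, 4 of 5 tested were higher (median 0.85). In the matched comparison 4 of 4 were higher (median 0.75), namely the ligands Areg, Ereg and Hbegf and the receptor inhibitor Errfi1. Areg, amphiregulin, an EGF receptor ligand made in tissue repair, was at 923, 1033, 886, 425 and 717 CPM in members and 298, 212, 295, 201 and 373 CPM in comparison cells. Members were above comparison cells in all 5 libraries, by 1.38 ± 0.12 (matched 0.86 ± 0.13, adjusted p = 0.000233). Ereg, epiregulin, another ligand of the family, was at 184, 131, 109, 82.8 and 96.7 against 54.6, 33.3, 36.01, 26.5 and 49.98 CPM (1.42 ± 0.11; matched 1.01 ± 0.14). Hbegf, the heparin-binding ligand, differed less (0.75 ± 0.09; matched 0.56 ± 0.11). Errfi1, an inhibitor of the EGF receptor, was at 0.85 ± 0.12 and matched 0.64 ± 0.15. Without sham 3 the matched values of Areg, Ereg and Hbegf were 0.66, 0.75 and 0.47, and 3 of the 4 tested genes passed.

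Of 33 stress and immediate-early response genes, 23 of 28 tested were higher and 2 lower, and in the matched comparison 20 of 25 were higher and none lower (median 0.51). Atf3, a stress-induced transcription factor, was at 340, 481, 495, 248 and 400 CPM in members and 203, 184, 211, 221 and 261 CPM in comparison cells (0.77 ± 0.13; matched 0.73 ± 0.13). Klf6, a zinc-finger factor induced on tissue injury, was at 0.93 ± 0.11 and matched 0.73 ± 0.11. Mitochondrial UMIs, a sign of cell and RNA quality, had a median of 14.5% in members against 13.3% in other cells of sham 1, 11.4% against 8.48% in sham 2, 7.77% against 6.85% in sham 3, 12.9% against 11.6% in resection 1 and 9.63% against 9.09% in resection 2. Members thus had the higher median in 5 of 5 libraries, and the part of this in the stress genes was not tested. Without sham 3, 6 of 23 stress genes remained past the threshold in the matched comparison.

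Duox2, the hydrogen peroxide-making enzyme that Duoxa2 matures, was the oxidase gene that stood out. It was at 203, 89.0, 250, 188 and 135 CPM in members of sham 1, sham 2, sham 3, resection 1 and resection 2, and at 119, 54.7, 120, 71.9 and 71.1 CPM in comparison cells. Members were higher in all 5 libraries, and by nearly the same amount in both comparisons (0.93 ± 0.10, edgeR adjusted p = 1.01e-06; matched 0.92 ± 0.12, adjusted p = 7.95e-05; matched without sham 3 0.85). Of the list of 12 oxidase and peroxide-handling genes, Duox2 included, 3 of 8 tested were higher with a median of 0.02, and 1 of 7, Duox2 itself, when matched. Cyba, the p22phox subunit of NADPH oxidases, was at 0.32 ± 0.09 (adjusted p = 0.0101) at first and 0.30 ± 0.11 when matched, where it missed the threshold (adjusted p = 0.0759).

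Of 20 antimicrobial and epithelial defence genes, 3 of 10 tested were higher in members and 1 lower (median 0.22), and 1 of 9 higher and 1 lower when matched (median 0.04). Their summed level was higher in members than in comparison cells in 5 of 5 libraries, from 91714 against 74388 CPM in sham 3 to 91932 against 64805 CPM in sham 2. Under the match on UMIs and marker share alone, sham 2 turned (91932 against 103031 CPM) and sham 1 was nearly equal (41972 against 41314 CPM). Sham 3, resection 1 and resection 2 stayed higher in members. Reg3a, a lectin of the same family as Reg3b and Reg3g, was at 0.52 ± 0.10 (adjusted p = 0.000185) and matched 0.14 (adjusted p = 0.494), and Il17rc, a subunit of the interleukin-17 receptor, at 0.30 ± 0.09 (adjusted p = 0.00979) and matched 0.07 (adjusted p = 0.753). Reg3b and Reg3g, C-type lectins that act on bacteria and are induced by interleukin-22, were abundant in every library. Reg3b was at 27253, 61169, 60748, 43591 and 55088 CPM in members and 20019, 41754, 48422, 33756 and 41645 CPM in comparison cells, a difference of 0.29 ± 0.12 that missed the threshold (adjusted p = 0.0546) and was -0.04 ± 0.08 when matched. Reg3g differed by 0.19 ± 0.12 (adjusted p = 0.214) and matched by 0.04 ± 0.08. Saa1, an acute-phase serum amyloid gene, was at 218, 760, 787, 519 and 298 against 154, 206, 226, 299 and 164 CPM (1.08 ± 0.16), higher in 5 of 5 libraries and in 4 of 5 when matched (0.64 ± 0.17, adjusted p = 0.0163). Dmbt1, a mucosal scavenger receptor, was lower (-1.14 ± 0.16; matched -0.70 ± 0.18). Lcn2, the iron-scavenging lipocalin, had 11 UMIs over all members and was not tested.

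Among genes of metabolism, Hk2, hexokinase 2, the first enzyme of glycolysis, was at 116, 23.7, 159, 93.9 and 31.8 CPM in members and 41.7, 26.2, 56.4, 22.1 and 15.4 CPM in comparison cells, higher in 4 of 5 libraries (1.36 ± 0.13). Matched it was higher in 5 of 5 (1.51 ± 0.15, adjusted p = 5.31e-06), and without sham 3 the matched value was 1.65. Of the 25 listed hypoxia and glycolysis genes, 10 of 22 tested were higher and 1 lower (median 0.15). When matched, 4 of 17 were higher and 1 lower (median 0.07). Most of the list did not pass, but over all genes only 19.2% were higher at first and 5.54% when matched. Hif1a, the oxygen-regulated transcription factor, was at 0.78 ± 0.11 and matched 0.69 ± 0.15. Egln3, a prolyl hydroxylase that marks it for decay, was at 1.05 ± 0.13 and matched 0.60 ± 0.16.

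Of 18 interferon-response genes, 11 of 12 tested were higher, 4 of 8 when matched and 0 of 6 when matched without sham 3, where 1.47% of all genes passed and 487 of 3733 had an unadjusted p below 0.05, so nothing is read from that 0. Ifit1bl1, of the interferon-induced tetratricopeptide family, was at 65.2, 29.7, 265, 55.2 and 129 CPM in members, and reached 1.26 ± 0.15 (matched 1.03 ± 0.18, higher in 4 of 5 libraries). Ifit1 of the same family was at 1.05 ± 0.17 and matched 0.74 ± 0.20. Irf1, a factor induced by interferon and NF-kB, was at 0.64 ± 0.12 and matched 0.51 ± 0.15. MHC class II genes, which present antigen, were higher in 3 of 6 tested and in 0 of 4 when matched. As only 5.54% of all genes were higher when matched, nothing is read from that 0.

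Position along the villus and along the gut was described with 4 further lists. The villus tip list shares Klf4, Fos and Junb with the stress list and Egfr with the EGF family list. It also shares Creb3l3 with the proximal markers, so its counts are not separate from those of these lists. Of the genes of the villus tip, 8 of 9 tested were higher (median 0.67) and 5 of 7 when matched (median 0.41), among them Creb3l3, a liver and gut lipid-metabolism factor (0.85 ± 0.12; matched 0.52 ± 0.12), and Junb (0.71 ± 0.10; matched 0.59 ± 0.11). Of the genes of the villus bottom, 8 of 11 were lower (median -0.88) and 4 of 9 when matched (median -0.31). The gasdermin C gene Gsdmc4 was at 42.6, 11.9, 30.3, 38.7 and 16.1 CPM in members and 55.4, 47.6, 87.3, 34.3 and 51.8 CPM in comparison cells (-1.32 ± 0.15; matched -1.13 ± 0.18). Without sham 3, 1 of 7 tip genes was higher and 2 of 9 bottom genes lower in the matched comparison. Markers of proximal and of distal small intestine were both higher at first (12 of 14 and 12 of 15), where 19.2% of all genes were. When matched, 4 of 12 and 3 of 15 were higher, where 5.54% of all genes were. Fabp6, the ileal bile acid-binding protein, was at 0.49 ± 0.15 and matched 0.03 ± 0.15. Of the enterocyte markers, 10 of 10 were higher at first and 1 of 10 when matched. The match was made on the UMI share of these same markers, so nothing is read from that drop. Of 7 markers of mucus-secreting goblet cells, 6 were lower at first and 4 when matched, with a median of -0.59 both times. Of the immature enterocyte markers, 5 of 5 tested were lower at first and 3 of 3 when matched. This list shares Gsdmc2, Gsdmc3 and Gsdmc4 with the villus bottom list and Dmbt1 with the antimicrobial list. Its summed level was not lower in resection 1 members (1027 against 999.9 CPM in comparison cells). Under the match on UMIs and marker share alone, members were higher in resection 1 (1027 against 376 CPM) and sham 1 (455 against 429 CPM). They were lower in sham 2, sham 3 and resection 2.

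The 12 genes with the largest differences by the naming rule were Bmp2, Rcan1, Aim1l, Acta1, Ereg, Rap2b, Areg, Trim15, Pnrc1, Ifit1bl1, Dusp5 and Tmcc3, at 1.76 to 1.23, and 0.77 to 1.32 when matched. Bmp2, a bone morphogenetic protein that restrains crypt proliferation, led them at 332, 137, 231, 155 and 254 CPM in members and 72.1, 29.7, 59.2, 96.2 and 85.0 CPM in comparison cells (1.76 ± 0.13; matched 1.28 ± 0.16). When matched it was higher in 4 of 5 libraries, with 139 against 185 CPM in sham 2, which held 16 members there. Rcan1, a feedback inhibitor of the phosphatase calcineurin, was at 1.61 ± 0.13 and matched 1.32 ± 0.16. Dusp5, a phosphatase that inactivates ERK kinases, was at 1.23 ± 0.12 and matched 0.77 ± 0.15. Without sham 3 the matched values of Bmp2 and Rcan1 were 1.07 and 0.98.

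**Figure D4:**
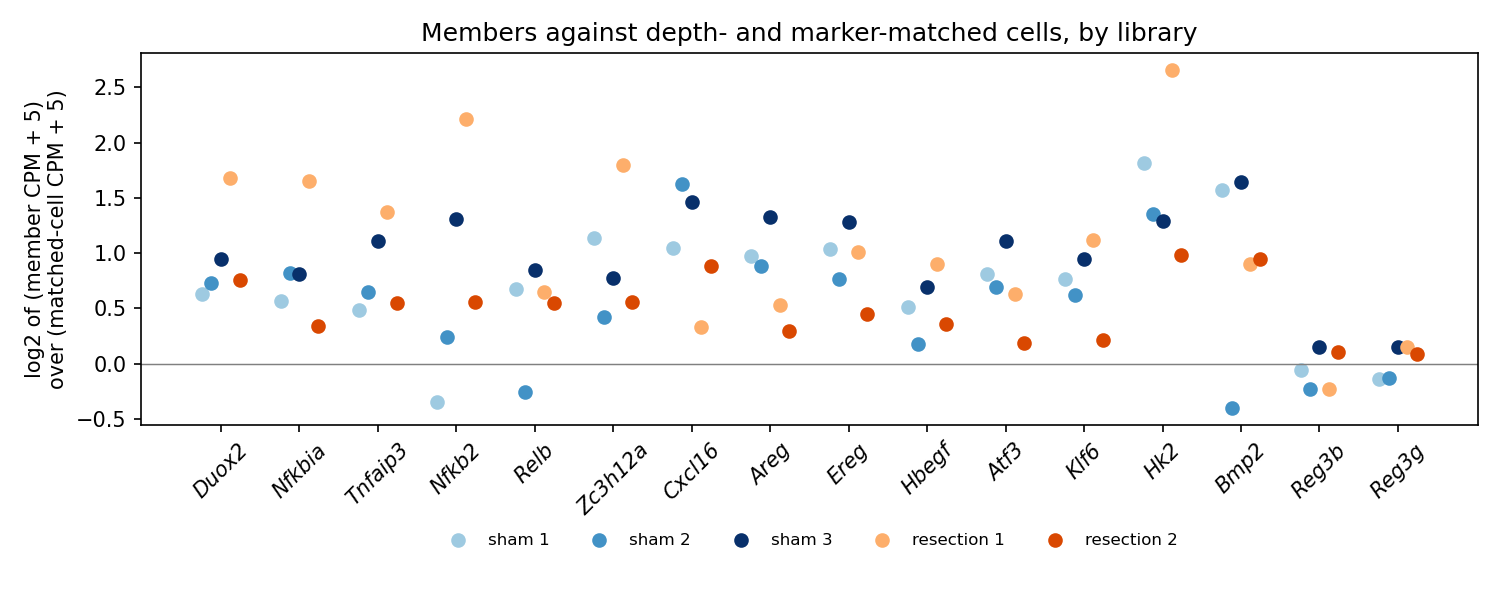
Log2 ratio of CPM + 5 between members and matched cells for 16 genes in each of the 5 libraries, where 0 means equal levels. Duox2, Nfkbia, Tnfaip3, Zc3h12a, Cxcl16, Areg, Ereg, Hbegf, Atf3, Klf6 and Hk2 lie above 0 in all 5 libraries, Nfkb2, Relb and Bmp2 in 4, and Reg3b and Reg3g lie around 0.

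Within the members, resection was compared with sham over the 5 libraries. Of 5891 genes, 2 (0.034%) were higher in resection members and 0 (0%) lower at an edgeR adjusted p below 0.05, and 90 had an unadjusted p below 0.05. DESeq2 called 5 genes higher and 0 lower. Slc2a2, the glucose transporter GLUT2, was at 3.99, 23.7 and 3.79 CPM in sham members and 121 and 68.3 CPM in resection members (3.98 ± 0.61, adjusted p = 0.0455). Cyp3a11, a cytochrome P450 of drug and steroid metabolism, was at 1.33, 0 and 1.47 CPM, 15 UMIs in all, against 27.6 and 30.8 CPM (4.30 ± 0.64, adjusted p = 0.0455). Both genes had the same order in the comparison cells, where Slc2a2 was at 3.23, 1.19 and 2.89 against 73.0 and 37.5 CPM, so the difference was not limited to members. Both calls were close to the threshold: without sham 3 the adjusted p of each was 0.712, without resection 1 it was 0.205 for Slc2a2 and 0.0618 for Cyp3a11, and with RLE size factors 0.0558 for each. Cyp3a11 also missed it without sham 2 (0.09) and without resection 2 (0.999). Over all alternatives Slc2a2 was called in 8 of 13 and Cyp3a11 in 5 of 12.

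Genes that mark the proximal small intestine leaned to resection among the members: 12 of 14 tested had a positive log2 fold change (median 0.87, all genes 0.01), with 2 of the 14 passing, the pair above. Lct, lactase, was at 57.2, 65.3 and 25.9 CPM in sham and 375 and 176 CPM in resection members (2.43 ± 0.47, adjusted p = 0.334). Apoa4, a chylomicron apolipoprotein, was at 419, 843 and 189 against 6096 and 1719 CPM (2.85 ± 0.63, adjusted p = 0.528), and Fabp1, a fatty acid-binding protein, at 125, 469 and 602 against 3678 and 1758 CPM (2.603 ± 0.59, adjusted p = 0.55). None of these 3 overlapped between the groups, and none passed. With the library set as a term Lct passed (adjusted p = 0.00682), and Apoa4 (0.208) and Fabp1 (0.0554) did not. Comparison cells had the same order: Lct was at 31.5, 15.5 and 11.7 CPM in sham and 306 and 130 CPM in resection libraries, and the proximal list summed to 6029, 7944 and 9356 against 21716 and 23020 CPM, so the difference was not limited to members. Groups did not overlap for 536 genes higher in resection (9.1%) and 244 lower (4.14%), so lack of overlap was not rare. Ileal Fabp6 was at 26600, 25528 and 40180 CPM in sham members against 3998 and 22448 CPM, where resection 1 stood apart (-1.25 ± 0.69, adjusted p = 0.999).

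Among defence genes, Duox2 was at 203, 89.0 and 250 CPM in sham and 188 and 135 CPM in resection members, with overlapping groups (-0.36 ± 0.44, adjusted p = 0.999). Reg3b was at 27253, 61169 and 60748 against 43591 and 55088 CPM (-0.12 ± 0.54) and Reg3g at 10548, 25991 and 26666 against 22845 and 24574 CPM (0.05 ± 0.53), both overlapping, with sham 1 the lowest library. None of 13 NF-kB genes, 27 stress genes, 4 EGF family genes and 8 cytokine genes tested passed, beside 0.034% of all genes, so no count of calls is read from these lists. Their medians were -0.10, -0.38, -0.63 and -0.13, beside 0.01 over all genes. Sham 2 and resection 1 held only 17 and 18 members. Genes lower in resection members without passing included Gstp1, a glutathione transferase, at 46.5, 94.96 and 71.8 against 16.6 and 19.4 CPM (-1.91 ± 0.46, adjusted p = 0.791), and F3, tissue factor, which starts coagulation, at 82.4, 23.7 and 65.0 against 16.6 and 16.4 CPM. Paneth transcripts, which made up 7.15% of member UMIs in sham 1 and 0.289 to 0.494% in the other libraries, moved with Gm15293, a defensin-type gene at 1294 CPM in sham 1 members and 29.7, 14.5, 0 and 12.7 CPM elsewhere, and its difference (-5.47 ± 1.65, adjusted p = 0.999) rested on that library.

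**Figure D5:**
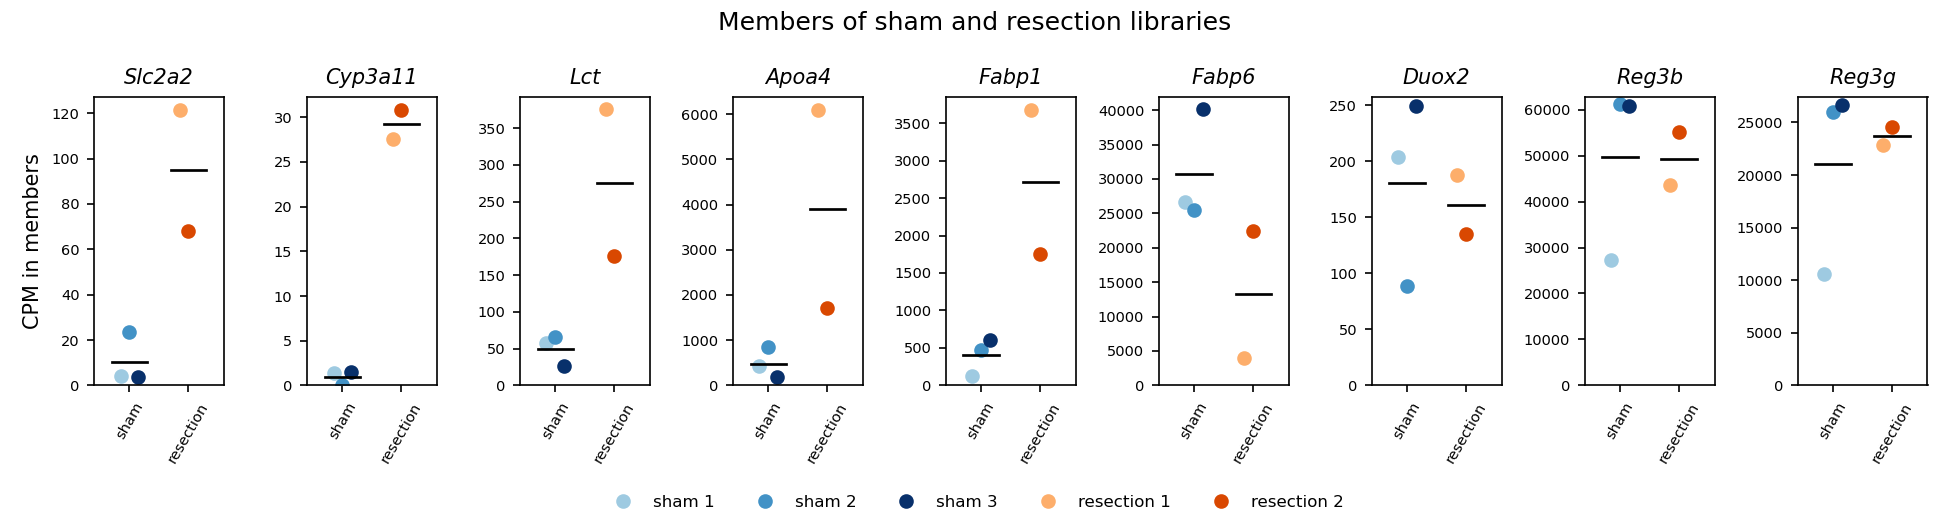
CPM of 9 genes in the members of each library, sham on the left and resection on the right of each panel, with black lines at the group means and a linear axis from 0. Slc2a2, Cyp3a11, Lct, Apoa4 and Fabp1 show resection 1 and 2 above all 3 sham points, Fabp6 is lowest in resection 1, and Duox2, Reg3b and Reg3g overlap.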

How the data were processed

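Members and gene lists were chosen with earlier results of these data known. The authors deposited UMI counts per gene and cell, made with Cell Ranger (version 2, marked with a question mark) per the labels, with builds GRCm38 and mm10 named in the submitters' processing notes. Depth ran from 11749028 to 41281731 UMIs a library, and 449 of 19404 deposited cells failed the filters on genes and mitochondrial UMIs. Counts were summed per library (libraries with at least 10 members) and fitted with edgeR 4.0.16 (TMM, filterByExpr, quasi-likelihood, Benjamini-Hochberg, 0.05) in R 4.3.3. Alternatives used DESeq2 1.42.0, other filters, thresholds, comparison cells and each library left out. The second, matched comparison was chosen after seeing the data. A fold change of CPM ratios used a pseudocount of 5. Doublets were scored against simulated pairs and kept in the main values. Pairs of libraries shared 6 to 45 cell barcodes and at most 1 member barcode.

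Named genes were the 12 highest and 8 lowest log2 fold changes past 0.05 with at least 50 CPM and one direction in all libraries, the 4 genes of lowest p in each list, and a fixed set; some of these are not reported here. For surgery they were the called genes, the 5 of lowest p each way with at least 50 CPM, and a fixed set. Gene positions come from GENCODE M21 and promoters from RefSeq.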

Additional observations from a re-analysis of the deposited data

How the results depend on the processing

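The counts of genes that differed between members and other cells depended on the comparison cells and on sham 3, and the cause was not tested. The count of higher genes, 1520, was 976 with DESeq2, 622 against all other cells with enough enterocyte markers, 969 against all other filtered cells, 30 with no library block, 209 with 1 cell matched on UMIs and marker share and 261 with Paneth and cycling cells also left out. The count of lower genes, 1715, was 1109 with DESeq2 and with 1 nearest cell, 57 with no library block, 236 with the match on UMIs and marker share and 295 with Paneth and cycling cells also left out. Leaving out each library gave 594 to 1806 higher and 705 to 1809 lower genes in the first comparison, 14 to 525 and 3 to 672 under the match on UMIs and marker share, and 55 to 386 and 15 to 458 with Paneth and cycling cells also left out. The lowest of each was without sham 3, and without resection 2 the first comparison gave 819 and 943.

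For surgery, the 2 higher genes became 5 with DESeq2, 0 with RLE size factors, 1 with at least 3 of the 7 genes, 0 without Paneth and cycling cells, 13 among genes with any count, 0 without the highest doublet scores, 6 with the library set as a term, and 0 to 4 with a library left out. The 0 lower genes became 34 among genes with any count. With the replicate block, 20 genes were higher and 58 lower, Lct (adjusted p = 3.64e-08), Apoa4 (1.37e-08) and Fabp1 (1.79e-15) among the higher and Fabp6 (4.69e-08) among the lower, and the difference in member share was -0.586 points over the 2 pairs. Same-numbered libraries correlated at 0.377 and 0.155 in their deviations, and sham 3 with resection 2 at 0.305. With 2 resection libraries, each sham library's correlations with them are equal and opposite by construction. With 2 pairs the numbers were not taken to pair animals. A rule of at least 5 genes was not run for surgery, as only 1 resection library kept 10 members. The difference in member share kept its direction under each setting tried, from -18.4 points without sham 2 to -0.586 without sham 3.

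Directions that turned between the first comparison and the match without Paneth and cycling cells were those of Defa20 (0.029), Defa22 (0.041), Gm14851 (0.21), Gm15284 (0.019), Itln1 (0.078) and Reg3b (-0.036, and -0.0050 when matched on UMIs and marker share). Within that match, values on both sides of 0 were found with a library left out for AY761184 (-0.13 to 0.16), Defa20 (-0.033 to 0.13), Defa22 (-0.023 to 0.15), Fabp6 (-0.080 to 0.34), Gm15284 (-0.066 to 0.20), Itln1 (-0.044 to 0.22) and Reg3b (-0.089 to 0.034). For surgery, Duox2 was at 0.070 with the replicate block, Reg3b at 0.11 with the set term, 0.15 with the block and -0.46 to 0.19 with a library left out, and Reg3g at -0.0067 with at least 3 genes and -0.27 to 0.26 with a library left out. Of 774 values of the named genes in the first comparison, 703 kept direction and call, 59 lost the call, 5 gained it and 7 turned. Of 230 matched values these were 196, 18, 2 and 14, and of 155 values for surgery 117, 12, 17 and 9.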
